A study of Mus musculus with 8 samples.

Results

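The genes described here code for the proteins of the cytosolic ribosome in 4T1, a line grown from a mammary carcinoma of a mouse and widely used to model triple-negative disease. They were chosen by name alone: protein-coding genes called Rpl or Rps with a number, with at most a short suffix, plus Rplp0, Rplp1, Rplp2 and Rpsa. This gave 81 of the 24677 genes in the deposited count tables, 49 of the large (60S) subunit and 32 of the small (40S) subunit. Of these, 80 had enough reads to be tested, and the muscle-type paralogue Rpl3l, with at most 6 reads in a library, had not. RNA was sequenced from 8 libraries in 4 groups of 2. Parental cells carried the control genotype, and the overexpressing group was parental cells with Tyro3 OE, an added excess of the receptor tyrosine kinase Tyro3. The resistant group was anti-PD1 resistant cells of control genotype, and the knockout group was anti-PD1 resistant cells with Tyro3 KO. Anti-PD1 is an antibody that releases T cells from the inhibitory receptor PD1. All groups were 4T1 cells in DMEM with serum, with no treatment at harvest. The labels do not give the promoter of the Tyro3 transgene, how the knockout was made, or whether a group was 1 clone. Nor do they give whether both libraries of each group were grown separately. The p-values therefore cover only the spread between these libraries, and this may be technical.

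Depth was 18001482 to 27261282 counted reads per library. Levels are depth-scaled read counts (CPM, with TMM scaling), and a change is a log2 fold change with its standard error (SE), where 1 is a doubling. A gene was called where edgeR's quasi-likelihood test gave a Benjamini-Hochberg adjusted p under 0.05 over all 14513 genes tested. Tyro3 stood at 25.6 and 24.4 CPM in the parental, 107 and 103 in the overexpressing, 20.7 and 21.2 in the resistant and 3.81 and 3.99 in the knockout libraries, so it was highest in the overexpressing and lowest in the knockout libraries, and resistant libraries lay slightly below parental ones. The epithelial keratins of a carcinoma line were present, Krt8 at 217 to 540 CPM and Krt18 at 257 to 441 CPM, but Epcam had only 3 to 34 reads. The 6 epithelial markers summed to 486 to 522 CPM in the resistant and 781 to 913 CPM in the other libraries. Of the 6 lymphocyte markers none passed the filter, and Ptprc, which marks all leukocytes, had 0 to 3 reads. Of 7 fibroblast markers, 6 were listed and summed to 176 to 209 CPM in the overexpressing and resistant libraries and 97.3 to 105 CPM in the parental and knockout ones. The 7 macrophage markers, with Lyz2 at 0 to 14 reads, summed to 27.5 to 31.4 CPM in the resistant and 40.8 to 63.8 CPM in the other libraries. Of the 5 endothelial markers, 3 were listed, at 0.32 to 3.77 CPM in sum. The part of these marker differences in the results below was not tested.

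A ribosome needs 1 copy of nearly every ribosomal protein, and surplus single proteins are degraded, so cells make the proteins in matched amounts. Their genes are highly transcribed, and most of their mRNAs begin with a 5′ terminal oligopyrimidine (TOP) tract, a C followed by an unbroken run of C and T bases. Through this tract, the growth-sensing kinase complex mTORC1 and the RNA-binding protein Larp1 set how strongly and how stably the mRNAs are used. RNA-seq counts the mRNAs, and not the proteins or their translation.

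Of the 81 genes, 61 had an entry in the RefSeq promoter table (GRCm38.p6), which lists 250 bases before to 50 after each start. The 8 windows shown here run from 45 bases before to 15 after the listed start, on the strand of the gene. They cover genes with rises of over 1 on the log2 scale in resistant cells (Rps21, Rps27, Rpl38, Rpl22l1), a gene higher than parental in both overexpressing and resistant cells (Rps6), and the 3 genes that were higher in knockout than in resistant cells (Rps2, Rps27l, Rpl7l1). Capitals mark the longest run of C and T that begins with C. Rps21 and Rps27l have 2 listed starts each, and the start whose window held the longest run is shown.
Rps21: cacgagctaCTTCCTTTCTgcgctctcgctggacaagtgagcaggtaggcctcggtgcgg
Rpl38: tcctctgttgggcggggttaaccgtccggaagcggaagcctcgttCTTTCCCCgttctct
Rps27: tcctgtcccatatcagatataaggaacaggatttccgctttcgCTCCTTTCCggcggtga
Rpl22l1: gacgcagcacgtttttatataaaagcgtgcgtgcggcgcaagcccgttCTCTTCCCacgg
Rps6: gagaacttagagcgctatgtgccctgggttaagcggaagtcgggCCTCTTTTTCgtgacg
Rps2: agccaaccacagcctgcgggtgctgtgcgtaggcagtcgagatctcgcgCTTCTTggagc
Rps27l: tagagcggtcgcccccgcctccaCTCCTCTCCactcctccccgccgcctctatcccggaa
Rpl7l1: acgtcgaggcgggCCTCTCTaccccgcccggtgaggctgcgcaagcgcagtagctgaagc

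In GRCm38.p6 these windows lie at chr2:180257404-180257463 (plus strand, Rps21), chr11:114668535-114668594 (plus strand, Rpl38), chr3:90213634-90213693 (minus strand, Rps27), chr3:28805463-28805522 (plus strand, Rpl22l1), chr4:86857353-86857412 (minus strand, Rps6), chr17:24720018-24720077 (plus strand, Rps2), chr9:66946041-66946100 (plus strand, Rps27l), chr17:46782642-46782701 (minus strand, Rpl7l1). They are placed by the RefSeq start, and 5 of the 8 (Rps21, Rpl38, Rpl22l1, Rps6 and Rps2) lie wholly within the gene as the deposited tables annotate it, that of Rps2 far from its annotated start.

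The longest such run had at least 8 bases in this window in 57.4% of the 61 genes, against 23.5% of the 11813 protein-coding genes of the tables with an entry. Where a gene has several listed starts, a match at any of them counted, for the runs and for the sequences below. In the whole 300-base window and on both strands, CCGGAAG, the core of ETS-family binding sites, stood in 41.0% of the 61 genes and 17.5% of all. The E-box CACGTG, which Myc with Max can bind, stood in 9.84% and 10.9%, and TATAAA in 11.5% and 9.93%. The listed start can lie some bases away from the start used in these cells, and a match is a sequence and not a shown binding site. Among the windows printed, that of Rps6 has a run of 10 bases that begins 1 base before the start. With the start counted as 1, the longest runs of Rpl38, Rps27, Rpl22l1 and Rps2 begin at 1, -2, 4 and 5. Those of Rps21, Rps27l and Rpl7l1 begin at -36, -22 and -32. Genes that rose and genes that fell in resistant cells thus occur in both sets.

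Across all libraries and per kilobase of mRNA, the tested genes had a median level of 994 CPM per kilobase. The quartiles were 682 and 1331, and the median was 1016 in the large and 952 in the small subunit. The highest was Rplp1, an acidic stalk protein that recruits elongation factors, at 2995 CPM per kilobase, followed by the small-subunit anchor Rpsa (2297), Rpl41 (2043), Rps12 (1869) and the stalk base Rplp0 (1773). The lowest was Rpl24 at 1.39 CPM per kilobase, with Rps10 (27.3), Rpl22l1 (35.5), Rpl26 (49.5) and Rpl13a (97.9). Rpl24, Rps10, Rpl26 and Rpl13a are core proteins, and their levels are uncertain. Their reads may have been split with near-identical copies elsewhere in the genome, which was not tested. Pseudogenes named for Rps10 held 34.4 reads per 100 of the gene, and those named for Rpl26 held 2.69. No listed pseudogene was named for Rpl24 or Rpl13a.

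In resistant cells, cytosolic ribosomal protein mRNA took a larger share of all counted reads than in any other group. The share was 5.70% and 5.64% in the parental, 6.07% and 5.97% in the overexpressing, 8.81% and 9.12% in the resistant, and 5.09% and 5.17% in the knockout libraries. By this share of raw reads, which has no TMM scaling, the resistant libraries were highest and the knockout libraries lowest, and no group overlapped another. After TMM scaling the median log2 CPM of tested genes was 9.36 and 9.34 in parental and 9.25 and 9.22 in overexpressing libraries. It was 9.96 and 10.03 in the resistant and 9.20 and 9.24 in the knockout libraries. On that scale the overexpressing libraries lay below the parental ones and overlapped the knockout ones. The large subunit held 5.22% and 5.38% of reads in resistant libraries, against 3.08% to 3.66% in the others. The small subunit held 3.58% and 3.74%, against 2.01% to 2.41%. The ratio of large to small subunit reads was 1.55 ± 0.009 in the parental, 1.52 ± 0.005 in the overexpressing, 1.45 ± 0.013 in the resistant and 1.53 ± 0.003 in the knockout group (mean ± SD, n = 2). With 2 libraries against 2 an exact permutation test cannot give a two-sided p below 0.333, so these sums carry no test. In RNA of a whole culture, more cells with much of an mRNA and more of it per cell cannot be told apart. The share of mitochondrially encoded genes was also highest in the resistant libraries, 2.98% and 3.24% against 1.99% to 2.42%.

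**Figure D1:**
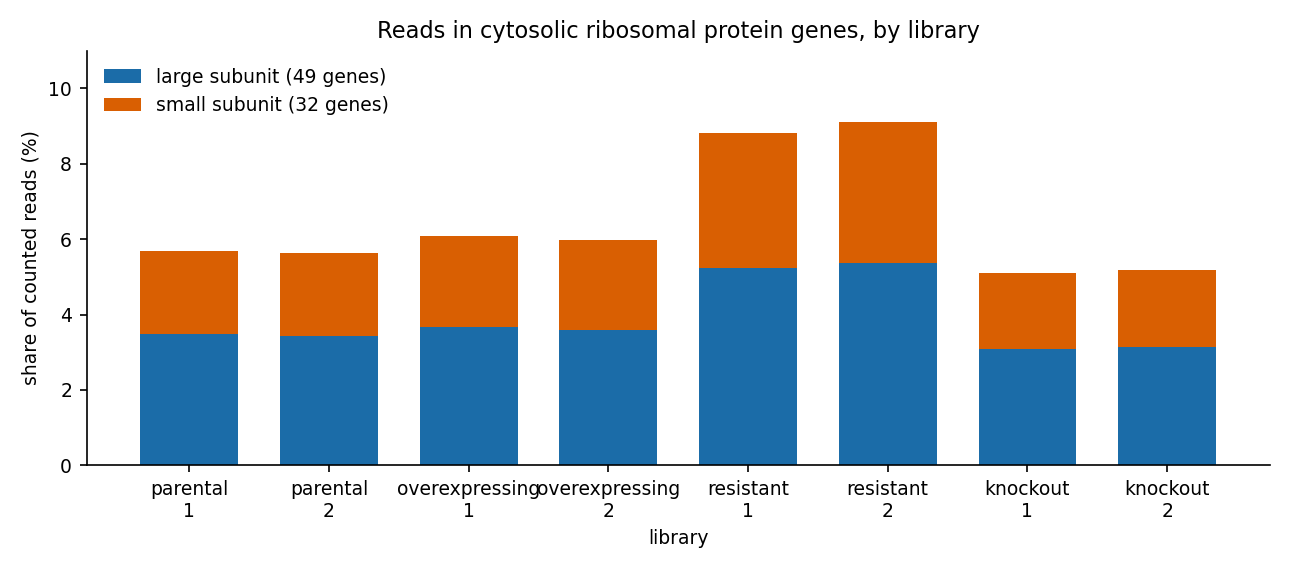
Share of all counted reads, in percent, that fell in cytosolic ribosomal protein genes in each of the 8 libraries, stacked by subunit. The 2 resistant bars reach 8.81% and 9.12%, and the other bars lie between 5.09% and 6.07%.

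Resistant cells had more mRNA than parental cells of 64 of the 80 genes tested and less of 6, with 10 not called. Among all 14513 genes 71.2% were called, 35.1% up and 36.1% down. The median log2 fold change was 0.65 over the 80 genes (quartiles 0.21 and 0.89), against 0.03 over all genes. In the large subunit 37 of 48 rose and 4 fell, with a median of 0.57, and in the small subunit 27 of 32 rose and 2 fell, with a median of 0.77. Both resistant libraries lay above all 6 other libraries for 67 of the 80 genes, a position that 23.6% of all genes took. Both lay below all others for 0 of the 80, a position that 22.8% of all genes took.

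The 5 largest rises were in Rps29, Rps28, Rpl39, Rps27 and Rpl38, all small basic proteins. Rps29, which sits in the head of the small subunit, had 122 and 151 CPM in the parental, 124 and 111 in the overexpressing, 336 and 457 in the resistant and 91.1 and 85.4 in the knockout libraries. The resistant libraries stood far above all others but also apart from each other, and the change from parental was 1.54 ± 0.075 (SE; edgeR adjusted p = 1.5e-22). Rps28, also of the small subunit, had 125 and 155 CPM in the parental, 141 and 134 in the overexpressing, 362 and 449 in the resistant and 99.5 and 105 in the knockout libraries. Again the resistant libraries were the highest and the knockout libraries the lowest, with a change of 1.53 ± 0.064 (SE; edgeR adjusted p = 3.26e-25). Rpl39, which lines the exit tunnel of the large subunit, had 173 and 180.5 CPM in the parental, 188 and 175 in the overexpressing, 462 and 518 in the resistant and 136 and 136 in the knockout libraries. The knockout libraries were the lowest here and the groups of resistant and parental libraries did not overlap, with a change of 1.47 ± 0.046 (SE; edgeR adjusted p = 7.31e-30). Rps27, a zinc-binding protein of the small subunit, had 413 and 458 CPM in the parental, 462 and 446 in the overexpressing, 1141 and 1224 in the resistant and 268 and 264 in the knockout libraries. Its 2 resistant libraries were close together and rose by 1.44 ± 0.044 (SE; edgeR adjusted p = 3.7e-30). Rpl38, known in mouse embryos for its part in the translation of Hox mRNAs, had 167 and 217 CPM in the parental, 147 and 142 in the overexpressing, 413 and 483 in the resistant and 136 and 126 in the knockout libraries. Its parental libraries lay between the resistant and the other libraries, and the rise was 1.22 ± 0.063 (SE; edgeR adjusted p = 8.69e-22).

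The 6 genes that fell in resistant cells were Rpl7l1, Rps2, Rps27l, Rpl7a, Rpl6 and Rpl9. Rpl7l1, a paralogue of Rpl7 that in human cells works in the assembly of the large subunit, had 248 and 253 CPM in the parental, 125 and 126 in the overexpressing, 126 and 121 in the resistant and 227 and 232 in the knockout libraries. The overexpressing and resistant libraries lay between 121 and 126 CPM and the knockout libraries just below the parental ones, with a change from parental to resistant of -1.02 ± 0.043 (SE; edgeR adjusted p = 3.38e-25). Rps2, which lines the entry of the mRNA channel, had 1042 and 1165 CPM in the parental, 563 and 571 in the overexpressing, 754 and 765 in the resistant and 1033 and 948 in the knockout libraries. The overexpressing libraries were the lowest and the resistant ones next, and the change to resistant was -0.54 ± 0.045 (SE; edgeR adjusted p = 1.91e-14). Rps27l, a paralogue of Rps27 and a known target of p53, had 183 and 202 CPM in the parental, 104 and 99.7 in the overexpressing, 129 and 138 in the resistant and 169.5 and 172 in the knockout libraries. The order was that of Rps2, and the change was -0.53 ± 0.047 (SE; edgeR adjusted p = 1.29e-13). Rpl7a and Rpl6, both of the large subunit, changed by -0.35 ± 0.040 and -0.28 ± 0.041 (edgeR adjusted p 1.57e-10 and 7.4e-08). The fall of Rpl9, -0.19 ± 0.042, was lost under upper-quartile scaling.

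**Figure D2:**
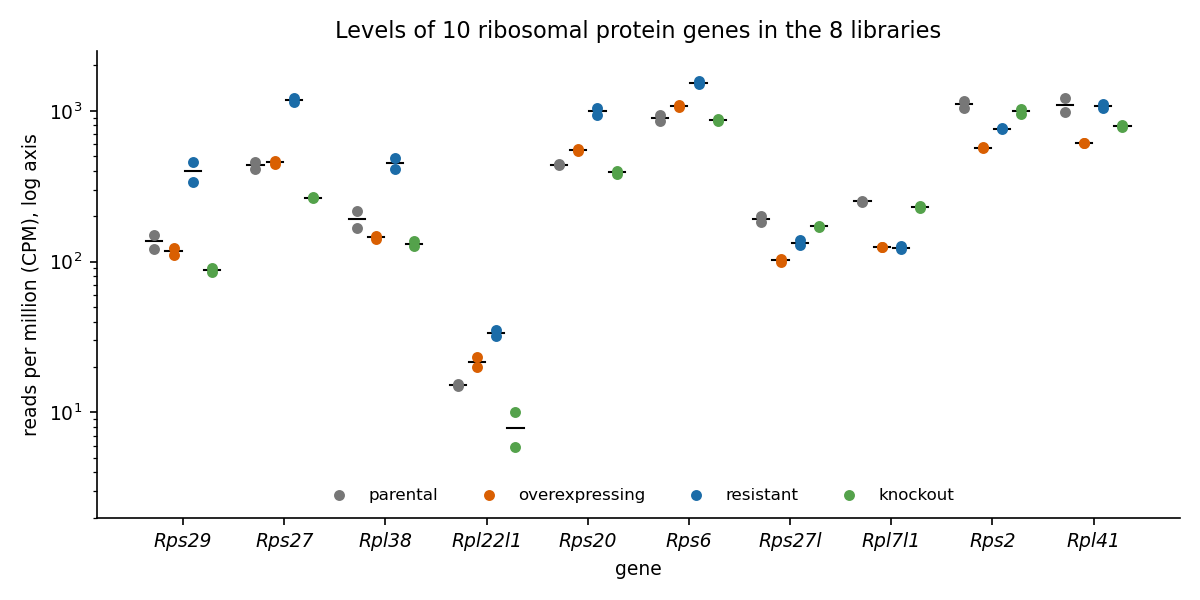
Level of 10 ribosomal protein genes in CPM on a log axis, with 1 point per library, coloured by group, and a black bar at the mean of the 2 libraries of a group. Rps29, Rps27, Rpl38, Rpl22l1, Rps20 and Rps6 are highest in the resistant group, whereas Rps27l, Rpl7l1 and Rps2 are lower in the overexpressing and resistant groups than in the parental and knockout groups.

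In knockout against resistant cells 71 of the 80 genes were lower and 3 were higher, where 72.7% of all genes were called, 35.6% lower and 37.1% higher. The median change was -0.77 (quartiles -1.06 and -0.43), against -0.02 over all genes, and 24 genes fell by at least 1 on the log2 scale. Of all 14513 genes, 2341 fell by at least that much, called or not. In the large subunit 43 of 48 fell and 1 rose (median -0.74), and in the small subunit 28 of 32 fell and 2 rose (median -0.84). The 5 largest falls were those of Rps29 (-2.16 ± 0.077), Rps27 (-2.15 ± 0.046), Rpl22l1 (-2.12 ± 0.124), Rps28 (-1.99 ± 0.065) and Rpl39 (-1.85 ± 0.047). For each of these the knockout libraries lay below the parental libraries too. The 3 genes that rose were Rpl7l1 (0.90 ± 0.042, edgeR adjusted p = 3.18e-23), Rps2 (0.38 ± 0.045, edgeR adjusted p = 3.39e-10) and Rps27l (0.35 ± 0.047, edgeR adjusted p = 5.67e-09). Rpl6, Rpl7, Rpl7a and Rpsa, of the longer ribosomal protein genes, and the low genes Rpl24 and Rps10 were not called. Comparisons of resistant cells with parental and with knockout cells share the resistant libraries, so a high value in those 2 libraries enters both.

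Compared directly, knockout cells had less ribosomal protein mRNA than parental cells, by a smaller amount. Of the 80 genes 52 were lower and 0 higher, where 36.3% of all genes were called, 18.3% lower and 18.1% higher, and the median change was -0.17. At an unadjusted p under 0.05, 1 gene was higher, and DESeq2 called 1 higher and 52 lower. The large subunit had 31 of 48 genes lower and the small subunit 21 of 32. With length and GC trends of the mRNA removed the count of lower genes was 33, where 2714 of all 14513 genes were lower. The knockout libraries lay below all 6 others for 37 of the 80 genes, against 12.4% of all genes. They lay above all others for 0, against 14.4% of all genes. The largest falls were in Rpl22l1 (-0.97 ± 0.141, edgeR adjusted p = 2.36e-07), Rps27 (-0.71 ± 0.045, edgeR adjusted p = 2.79e-17), Rps23 (-0.70 ± 0.044, edgeR adjusted p = 1.4e-17), Rps29 (-0.63 ± 0.082, edgeR adjusted p = 2.74e-08) and Rps21 (-0.59 ± 0.056, edgeR adjusted p = 1.02e-11). Rps23, which sits at the decoding centre, had 535 and 586 CPM in the parental, 581 and 585 in the overexpressing, 812 and 852 in the resistant and 334 and 355 in the knockout libraries. Its knockout libraries were the lowest of the 8 and its overexpressing libraries overlapped the parental ones.

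With Tyro3 overexpression in parental cells, ribosomal protein genes moved in both directions. Of the 80 genes 14 were higher and 35 lower, with 32.5% of all genes higher and 33.7% lower, and 66.2% called in either direction. The median change was -0.07 (quartiles -0.29 and 0.05), against 0.03 over all genes, and 0 genes moved by 1 or more in either direction past the threshold. Of all 14513 genes, 2120 rose and 991 fell by that much, called or not. The split of the ribosomal protein genes rested on the scaling: with upper-quartile scaling 35 were higher and 24 lower, and the median was 0.07. Of all 14513 genes, 5876 were then higher and 3871 lower. With GC and mRNA length trends removed the split was 29 higher and 28 lower, where 4441 of all genes were higher and 5189 lower. Upper-quartile scaling moved the median of all genes to 0.17 here, 0.19 in resistant against parental and -0.17 in knockout against resistant cells. Here the median of the 80 genes lay 0.10 below that of all genes under both TMM and upper-quartile scaling. That distance was -0.046 with GC and length trends removed and 0.004 with GC and mRNA length trends removed. With at least 50 reads in 2 libraries it was -0.039, over 79 genes. The 14 genes that rose and 24 of the 35 that fell kept their call under upper-quartile scaling. By subunit, 8 of 48 large-subunit genes rose and 25 fell, and 6 of 32 small-subunit genes rose and 10 fell.

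The largest rise was in Rpl22l1, a paralogue of Rpl22 that mouse cells raise when Rpl22 is absent. It had 15.4 and 14.98 CPM in the parental, 23.4 and 19.9 in the overexpressing, 32.3 and 35.0 in the resistant and 5.86 and 9.99 in the knockout libraries. The level was low and the 2 knockout libraries stood apart, but overexpressing libraries lay above parental ones, with a change of 0.51 ± 0.120 (SE; edgeR adjusted p = 0.000245), a call that was lost with DESeq2 and with no filter on low counts. Rps20, of the small-subunit head, had 446 and 435 CPM in the parental, 555 and 538 in the overexpressing, 944 and 1045 in the resistant and 382 and 402 in the knockout libraries. The order was knockout, parental, overexpressing, resistant with no overlap, and the change was 0.31 ± 0.044 (SE; edgeR adjusted p = 2.77e-08). Rps6, the target of the S6 kinases downstream of mTORC1, had 852 and 931 CPM in the parental, 1063 and 1094 in the overexpressing, 1575 and 1498 in the resistant and 880.2 and 857 in the knockout libraries. Here the overexpressing libraries lay between the parental and the resistant ones, with a change of 0.28 ± 0.043 (SE; edgeR adjusted p = 3.4e-07). Rpl17 and Rpl10a, the next in size, rose by 0.24 ± 0.041 and 0.24 ± 0.040. The largest falls were those of Rpl7l1 (-0.998 ± 0.042), Rps2 (-0.96 ± 0.046), Rps27l (-0.92 ± 0.048), Rpl41 (-0.84 ± 0.054) and Rpl37a (-0.79 ± 0.047), each with an edgeR adjusted p of 2.73e-18 or less. Rpl41, the shortest ribosomal protein, had 975 and 1210.4 CPM in the parental, 609.6 and 612 in the overexpressing, 1037 and 1111 in the resistant and 799 and 786 in the knockout libraries. The overexpressing libraries were the lowest of the 8, and the resistant and parental libraries overlapped.

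**Figure D3:**
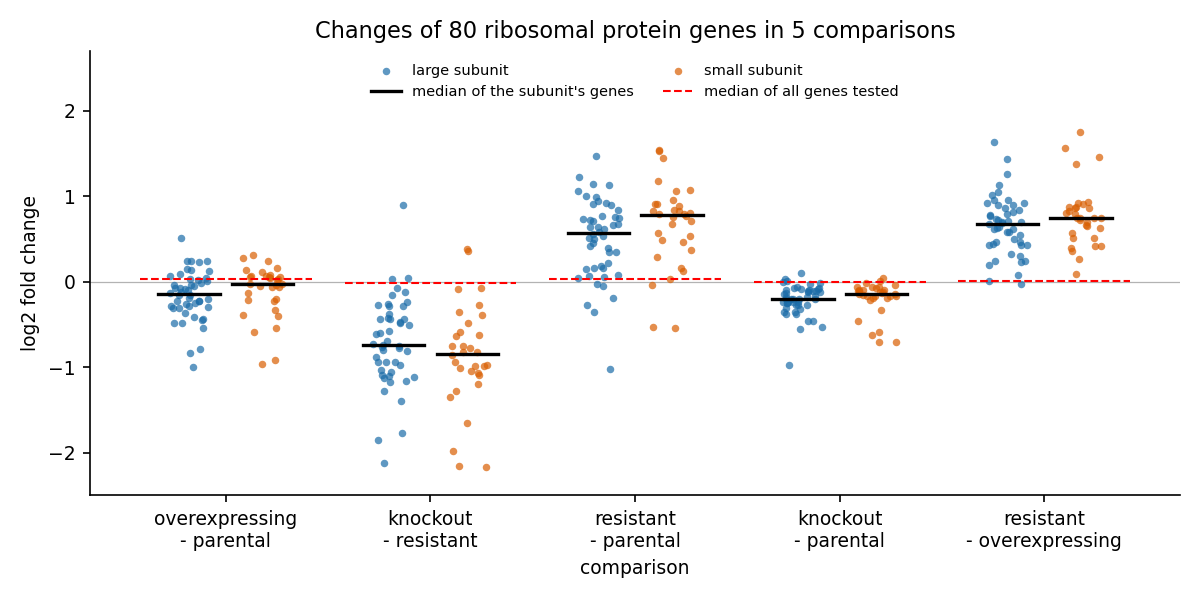
Log2 fold change of each of the 80 tested ribosomal protein genes in 5 comparisons, by subunit, with a black bar at the median of the subunit and a dashed red line at the median of all genes tested. The medians of both subunits lie above 0.5 in resistant against parental and resistant against overexpressing cells and below -0.7 in knockout against resistant cells, and the points of overexpressing against parental cells straddle 0.

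Compared directly with overexpressing cells, resistant cells had more mRNA of 76 of the 80 genes and less of 0, where 55.3% of all genes were called, 27% higher and 28.3% lower. At an unadjusted p under 0.05 still 0 were lower, and DESeq2 called 75 higher and 0 lower. The median was 0.70, against 0.01 over all genes. The largest rises were in Rps29 (1.75 ± 0.075), Rpl38 (1.63 ± 0.063), Rps28 (1.56 ± 0.062), Rps21 (1.46 ± 0.056) and Rpl39 (1.43 ± 0.045). Rpl7l1 and Rpl6 did not pass the test, with changes of -0.02 ± 0.044 and 0.01 ± 0.041.

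The change that goes with Tyro3 was tested for a difference between the parental and the resistant background. The parental background had Tyro3 overexpressed and the resistant background had it knocked out, so background and kind of manipulation cannot be told apart. The change from parental to overexpressing was lower than the change from knockout to resistant for 77 of the 80 genes and higher for 0, where 46.7% of all genes were called, 22% lower and 24.7% higher. At an unadjusted p under 0.05 also 0 were higher, and DESeq2 called 77 lower and 0 higher. The median difference was -0.87, and 26 of the called genes differed by at least 1. Over all 14513 genes, called or not, 979 were lower and 1643 higher by at least 1. Rpl7l1 was among the 3 genes with no called difference (-0.10 ± 0.060, edgeR adjusted p = 0.168), the others being the low genes Rpl24 and Rps10. The 2 comparisons share no library. Of the 80 genes, 14 were higher with overexpression and lower with knockout, and 3 the other way round (Rpl7l1, Rps2 and Rps27l). Among all genes 22.5% were in the first of these classes and 25.9% in the second. A further 28 were lower in both (2.87% of all genes), 0 were higher in both (3.67%), and 29 were called lower with knockout and not called with overexpression (10.2%). With upper-quartile scaling the first class held 35 of the 80 genes (29.1% of all genes), the second 3 (19.9%), and 21 were lower in both (2.65%). Across the 80 genes the 2 changes had a Pearson r of -0.61 and a Spearman rho of -0.60, given as a description, since genes of 1 library share its depth and composition.

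**Figure D4:**
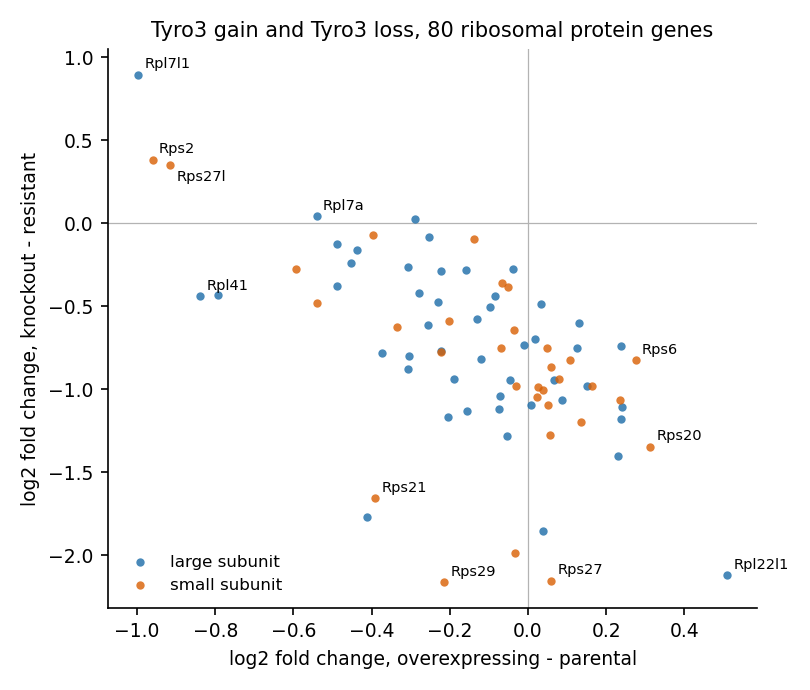
Log2 fold change on Tyro3 overexpression in parental cells (horizontal) against that on Tyro3 knockout in resistant cells (vertical) for the 80 tested genes, coloured by subunit. Rpl7l1, Rps2 and Rps27l stand alone at the upper left, Rpl22l1 stands at the lower right, and 71 genes were called lower on the vertical axis.

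To ask which genes moved more or less than the ribosomal proteins as a whole, the test was repeated with the summed reads of the 81 genes as the library size. Since their own total sets this scale, rises and falls of these genes balance in part by construction. The shares of all genes shift with that total and are no measure of enrichment. The median of all genes in resistant against parental cells was -0.48 on this scale and 0.03 before. In that comparison 41 of 80 genes rose and 26 fell relative to the ribosomal protein total. Of all genes 73.5% were called, 16.6% higher and 56.9% lower. The small subunit had 20 of 32 above and 8 below, and the large subunit 21 of 48 above and 18 below. In knockout against resistant cells 27 rose and 39 fell relative to the total, where 75.2% of all genes were called, 62.9% up and 12.4% down. In overexpressing against parental cells 33 rose and 22 fell, where 66.7% of all genes were called, 40.4% up and 26.3% down. In resistant against overexpressing cells 31 rose and 24 fell, where 76.5% of all genes were called, 2.65% up and 73.8% down. In knockout against parental cells 9 rose and 18 fell, where 44.9% of all genes were called, 36.4% up and 8.49% down. The other 53 did not pass the test. The count of 9 ran from 3 (without knockout replicate 2) to 16 (without either resistant library). In the test of the difference between backgrounds, 23 rose and 33 fell relative to the total, where 73.9% of all genes were called, 72% higher and 1.86% lower. Relative to the total, Rps29, Rps28 and Rpl39 led the rises in resistant against parental cells at 1.03, 1.02 and 0.96, and Rpl7l1, Rps2 and Rps27l the falls at -1.53, -1.05 and -1.03.

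The size of the change ran with the length of the coding sequence. The 10 genes under 300 coding bases are Rpl41, Rpl39, Rps29, Rps28, Rpl38, Rps21, Rps27l, Rps27, Rpl37a and Rpl37. Their median change was 1.15 in resistant against parental and -1.71 in knockout against resistant cells. The 47 genes of 300 to under 600 bases had 0.71 and -0.94, and the 23 longer ones 0.37 and -0.44. Across the 80 genes, Pearson's r between log coding length and change was -0.39 in resistant against parental, 0.50 in knockout against resistant and 0.13 in overexpressing against parental cells, given as a description. Among other protein-coding genes the medians in resistant against parental cells were -0.08 for 230 genes under 300 bases, -0.22 for 1258 of 300 to under 600 bases and -0.02 for 10427 longer ones, and in knockout against resistant cells -0.13, 0.19 and 0.05. In resistant against overexpressing cells they had the order of the ribosomal protein genes, 0.24, 0.05 and -0.03 against 1.41, 0.75 and 0.46. The same held in knockout against parental cells, with -0.16, -0.05 and 0.02 against -0.46, -0.17 and -0.10. In overexpressing against parental cells the other genes had -0.40, -0.26 and 0.02, and the ribosomal protein genes -0.30, -0.05 and -0.12. Pearson's r there was 0.11 among the other genes. Rps27l, with the same coding length as Rps27 (255 bases), moved the other way, and Rpl41 was not called in resistant against parental cells. Upper-quartile scaling called Rpl41 higher there. The shortest ribosomal protein genes also differed between the 2 libraries of the parental and of the resistant group: their median log2 difference between replicate 2 and replicate 1 was 0.26 and 0.18, against -0.03 and 0.04 for those of 300 to under 600 bases. In the overexpressing and knockout groups it was -0.06 and -0.00, against -0.04 and 0.03. The largest gap in the resistant group was in Rps29, whose 2 libraries differed by 30.6% of their mean. With GC and mRNA length trends removed, the median of the shortest genes was 1.04 in resistant against parental and -1.46 in knockout against resistant cells. The part of fragment size or RNA quality in this pattern was not tested.

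**Figure D5:**
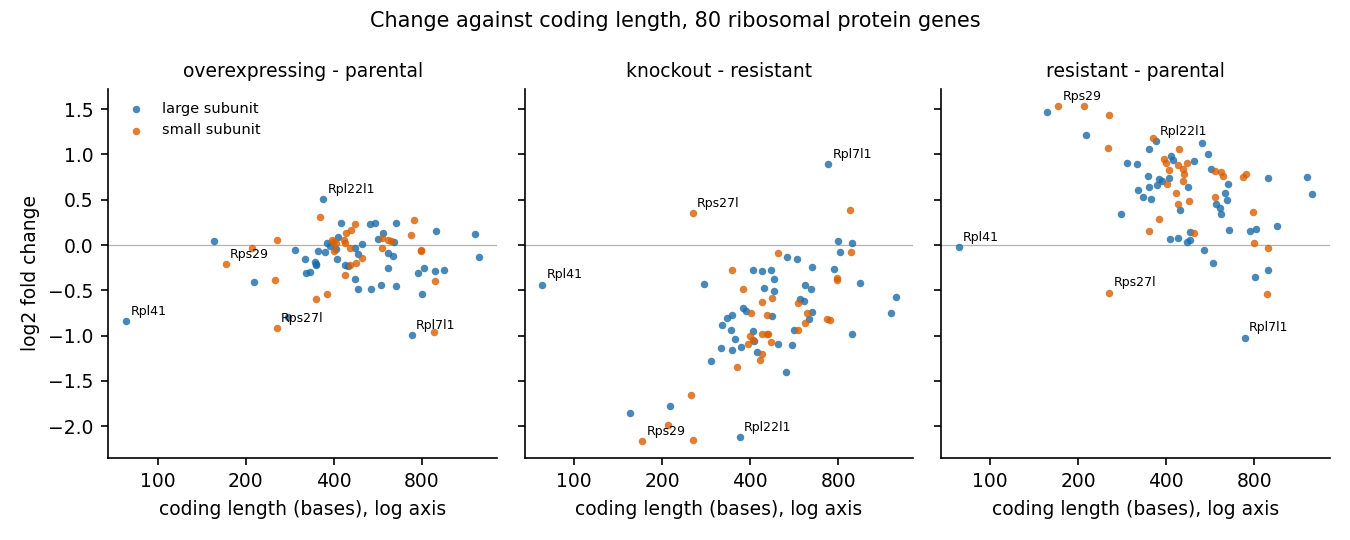
Log2 fold change against coding length in bases on a log axis for the 80 tested genes, coloured by subunit, in 3 comparisons. In knockout against resistant cells the genes under 300 coding bases reach -2.16, with Rps27l at 0.35, and in resistant against parental cells they reach 1.54, with Rpl41 at -0.03 and Rps27l at -0.53.

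Some genes of the set have a paralogue. Rps27 rose by 1.44 ± 0.044 in resistant against parental cells and Rps27l fell by 0.53 on the log2 scale, with an SE of 0.047. Rpl7 had 1614 and 1627 CPM in the parental, 1358 and 1361 in the overexpressing, 1876 and 1788 in the resistant and 1689 and 1779 in the knockout libraries. It rose by 0.18 ± 0.042 (SE; edgeR adjusted p = 0.000211) in resistant cells, while its paralogue Rpl7l1 fell by 1.02. Rpl22, the widely expressed partner of Rpl22l1, had 319.7 and 309 CPM in the parental, 318 and 306 in the overexpressing, 507 and 519.9 in the resistant and 305 and 313 in the knockout libraries. Its overexpressing and parental libraries overlapped, where Rpl22l1 was higher with Tyro3. In resistant against parental cells Rpl22 rose by 0.71 ± 0.040 and Rpl22l1 by 1.15 ± 0.116. Rpl3, near the peptidyl transferase centre, rose by 0.75 ± 0.041 in resistant cells, and its muscle paralogue Rpl3l had 0 to 0.31 CPM. Rpl36a changed by 0.61 ± 0.045 and its intron-less relative Rpl36al, at about 1 CPM, was not called. The level of Rps4x changed by 0.37 ± 0.040 and that of Rpl10 by 0.49 ± 0.041.

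The stalk binds translation factors. Rplp0, its base, had 2519 and 2483 CPM in the parental, 2049.6 and 2069.8 in the overexpressing, 3064 and 2740.3 in the resistant and 2183 and 2154 in the knockout libraries. The resistant libraries were the highest, and the changes were 0.21 ± 0.044 (SE; edgeR adjusted p = 3.34e-05) in resistant and -0.28 ± 0.044 (SE; edgeR adjusted p = 3.74e-07) in overexpressing against parental cells. The stalk dimers Rplp1 and Rplp2 rose in resistant against parental cells by 0.77 ± 0.052 and 0.64 ± 0.046. Their falls on overexpression, -0.19 ± 0.052 and -0.22 ± 0.046, were lost under upper-quartile scaling. Rpsa had the highest raw level of all, 4001 and 4025 CPM in the parental, 3062 and 3032 in the overexpressing, 4000.2 and 3818 in the resistant and 3758 and 3681 in the knockout libraries. The overexpressing libraries were lower than the other 6, with a change of -0.40 ± 0.041 (SE, edgeR adjusted p = 1.68e-11), and resistant and parental cells differed by -0.04 ± 0.041 (edgeR adjusted p = 0.421). Upper-quartile scaling called Rpsa higher in resistant than in parental cells.

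Some of the proteins have known roles beyond the ribosome. Rpl5 and Rpl11 bind Mdm2 together with the 5S rRNA when assembly fails, which stabilises p53. Rpl5 rose in resistant against parental cells by 0.74 ± 0.041. Rpl11 had 691 and 671 CPM in the parental, 491 and 478 in the overexpressing, 641 and 669 in the resistant and 590.5 and 609.9 in the knockout libraries. Resistant libraries lay just below parental ones, which did not pass the test, and the overexpressing libraries were the lowest, with a change from parental of -0.49 ± 0.041 (SE; edgeR adjusted p = 1.51e-14). Under upper-quartile scaling Rpl11 was called higher in resistant than in parental cells. Rps3, which also acts in DNA repair, rose by 0.75 ± 0.042, Rps14, lost in the human 5q- syndrome, by 0.84 ± 0.045, and Rps19, mutated in human Diamond-Blackfan anaemia, by 0.89 ± 0.047. Rps27a, made as a fusion with ubiquitin, rose by 0.90 ± 0.045 in resistant and by 0.24 ± 0.044 in overexpressing against parental cells. Rpl10a, linked in mouse cells to selective translation, rose by 0.68 ± 0.040 and 0.24 ± 0.040 in the same order. Rpl13a, known for interferon-induced release from the ribosome in human monocytes, had 83.1 to 139 CPM and rose by 0.41 ± 0.048 in resistant cells.

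Near-identical processed pseudogenes limit what can be said of single genes. The tables list 159 pseudogenes named for 51 of the 81 genes. Their reads came to 1.28 to 3.23 per 100 reads of the ribosomal protein genes in a library, fewest in the resistant libraries. For Rps2 they exceeded the gene itself: over all libraries 201931 reads stood in 7 Rps2 pseudogenes, 200759 of them in Rps2-ps10, against 147966 in Rps2. With these reads added, Rps2 changed by -1.001 ± 0.042 in overexpressing against parental, -0.80 ± 0.041 in resistant against parental and 0.67 ± 0.041 in knockout against resistant cells, so the direction was the same. For Rpl3, Rpl3-ps1 held 16523 reads, and for Rpl38 the pseudogenes held 6.32 per 100 reads of the gene. The changes in resistant against parental cells with these reads added were 0.73 ± 0.041 for Rpl3 and 1.23 ± 0.061 for Rpl38.

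Fau and Rack1 are ribosome components outside the naming rule. Fau, which encodes Rps30 fused to a ubiquitin-like protein, had 416 and 404 CPM in the parental, 396 and 396 in the overexpressing, 676 and 708 in the resistant and 297 and 292 in the knockout libraries. The resistant libraries were the highest and the knockout libraries the lowest, with changes of 0.76 ± 0.039 in resistant against parental and -1.23 ± 0.040 in knockout against resistant cells. Rack1, a scaffold on the small-subunit head, changed by 0.80 ± 0.042 and -0.88 ± 0.042 in the same order and rose by 0.45 ± 0.042 on overexpression.

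Of 16 translation factors and partners listed for a TOP mRNA, 6 were higher and 6 lower in resistant against parental cells, with a median of 0.03. This is near the share of all genes, 35.1% higher and 36.1% lower. Tpt1, the translationally controlled tumour protein, had 1755 and 1772 CPM in the parental, 2732 and 2744 in the overexpressing, 5509 and 5345 in the resistant and 1621 and 1659 in the knockout libraries. Knockout libraries were the lowest, followed by parental, overexpressing and resistant ones, with changes of 1.62 ± 0.042 (SE; edgeR adjusted p = 5.17e-33) in resistant against parental and -1.73 ± 0.042 (SE; edgeR adjusted p = 5.54e-34) in knockout against resistant cells. The elongation factors Eef2 and Eef1b2 rose in resistant cells by 0.72 and 0.71, whereas Eef1d fell by 0.86. Eef1a1, the most abundant of the 16, was not called, at 0.07. Hnrnpa1, an RNA-binding protein, fell by 1.21 and Npm1, a nucleolar assembly chaperone, by 0.42. In knockout against resistant cells 5 of the 16 rose and 8 fell, where 37.1% of all genes were higher and 35.6% lower. In overexpressing against parental cells 4 rose and 8 fell, where 32.5% of all genes were higher and 33.7% lower.

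Among 15 genes of mTORC1 and its regulators, 8 were higher and 5 lower in resistant against parental cells, where 35.1% of all genes were higher and 36.1% lower. Sesn2, an inhibitor of mTORC1 under amino acid stress, had 13.2 and 12.0 CPM in the parental, 65.4 and 62.7 in the overexpressing, 70.4 and 64.6 in the resistant and 10.2 and 9.28 in the knockout libraries. The parental and knockout libraries were low and the overexpressing and resistant libraries high, with a change of 2.42 ± 0.084 (SE; edgeR adjusted p = 3.97e-28) in resistant and 2.35 ± 0.084 (SE; edgeR adjusted p = 3.37e-27) in overexpressing against parental cells. Ddit4, a further inhibitor, changed by 1.03 and 1.599 in the same order, and Eif4ebp1, a translation repressor that mTORC1 inactivates, by 0.89 and 0.39. Mlst8, a subunit of the complex, changed by -1.84 and -1.44, and the cap-binding factor Eif4e by -0.78 and -1.02. Of 5 La-related genes, Larp1 fell by 0.32 in resistant and 0.22 in overexpressing against parental cells, and 2 were higher and 3 lower in resistant cells. Myc, a transcription factor of ribosomal protein genes, had 212 and 215 CPM in the parental, 207 and 208 in the overexpressing, 329 and 317 in the resistant and 194 and 176 in the knockout libraries. It rose in resistant cells by 0.60 and fell in knockout against resistant cells by 0.80, and parental and overexpressing libraries differed by -0.04, which did not pass the test. Myc was listed with Max, Mxd1 and Mnt. In resistant against parental cells 3 of these 4 genes were higher and 1 lower. Mnt and Mxd1 changed by 0.84 and 0.72 there, and Max by -0.43. In knockout against resistant cells Mnt and Mxd1 changed by -0.81 and -1.31, and Max by 0.57.

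Dedicated chaperones protect single new ribosomal proteins on their way to assembly. Of 5 tested, 4 were lower and 1 higher in resistant against parental cells, where 36.1% of all genes were lower and 35.1% higher, with a median of -1.24. Grwd1, a chaperone of Rpl3, had 125 and 125 CPM in the parental, 48.0 and 46.7 in the overexpressing, 45.2 and 45.1 in the resistant and 135 and 133 in the knockout libraries. The overexpressing and resistant libraries lay far below the parental and knockout ones, with changes of -1.47 ± 0.053 (SE; edgeR adjusted p = 1.27e-27) and -1.40 ± 0.052 (SE; edgeR adjusted p = 9.48e-27) from parental cells. Heatr3, an importer of Rpl5 in human cells, changed by -1.24 in resistant and -1.07 in overexpressing against parental cells, and Tsr2, a chaperone of Rps26, by -1.38 and -1.12. In knockout against resistant cells 4 of the 5 rose and 1 fell, with a median of 1.27. Of all genes 37.1% were higher and 35.6% lower.

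The 77 nuclear genes for mitochondrial ribosomal proteins serve the separate ribosome of mitochondria. In resistant against parental cells 62 were lower and 4 higher, where 36.1% of all genes were lower and 35.1% higher, and the median was -0.58, where the cytosolic median was 0.65. In knockout against resistant cells 61 were higher and 8 lower (median 0.44), with 37.1% and 35.6% of all genes. In overexpressing against parental cells 70 were lower and 2 higher (median -0.56), with 33.7% and 32.5% of all genes. In resistant against overexpressing cells 26 were higher and 14 lower (median 0.06), with 27% and 28.3% of all genes. The difference between the sets carries no test here, since their genes are not replicates.

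The authors' deposited table for resistant against parental cells called 63 of the 81 genes higher and 6 lower at an adjusted p under 0.05. The authors' deposited table for knockout against resistant cells called 3 higher and 70 lower, and the authors' deposited table for overexpressing against parental cells called 13 higher and 34 lower.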

How the data were processed

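RNA from 8 libraries was sequenced, 2 for each of 4 groups. Raw read counts per gene, deposited by the authors in 3 tables of 2 groups each, were joined on the gene identifier, with 0 for genes that a table leaves out. The deposited tables also hold the authors' log2 fold changes and adjusted p-values, which were used only where named, and gene lengths in bases. CASAVA, STAR and DESeq2 with GRCm38 and mm10 are named without version or role, per the submitters' processing notes; the counting program was not given in the sources used here, nor was the strand setting.

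Counts were filtered with filterByExpr, scaled with TMM and tested with edgeR 4.0.16 (limma 3.58.1, R 4.3.3) by the quasi-likelihood test with 1 mean per group over all 8 libraries and Benjamini-Hochberg adjustment over 14513 genes. A repeat used the summed ribosomal protein reads as library size. Depth was 18001482 to 27261282 reads. The fit was tested on simulated data. Alternatives were upper-quartile and RLE scaling, DESeq2 1.42.0, other filters, a fold threshold of 1, removed GC and length trends, a replicate block and leaving out each library. The trends with principal mRNA lengths (GENCODE M21) were added after seeing the data. Members, lists and tests were chosen with earlier results of these data known. Named genes are paralogue pairs, stalk and anchor proteins, genes with roles outside the ribosome, the 5 largest called changes each way with at least 5 CPM and no overlap, the 3 largest relative to the total, the extremes of level, and the leading genes of each list. One ribosome component outside the naming rule is not reported here.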

Additional observations from a re-analysis of the deposited data

Results flagged for a closer look

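The change with Tyro3 differed between the parental and the resistant background for 77 of the 80 ribosomal protein genes, by the test of the difference itself in edgeR. In each of the 77 the change from parental to overexpressing was lower than that from knockout to resistant cells. Background and kind of manipulation, overexpression or knockout of Tyro3, cannot be told apart in this design. The smallest adjusted p-values went with Rps27, Rpl39 and Rps21. The difference was -2.09 on the log2 scale for Rps27, -1.81 for Rpl39 and -2.05 for Rps21, all 3 of them under 300 coding bases. The groups of 2 libraries were too small to be searched for single outlying samples.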

How the results depend on the processing

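Counts of ribosomal protein genes called higher and lower stayed within 1.5 times of the reported ones except as follows. With upper-quartile scaling, overexpressing against parental cells had 35 higher, where 5876 of all genes were higher, and the median became 0.068. With at least 50 reads in 2 libraries it had 24, where 4486 of all genes were higher. With GC and mRNA length trends removed it had 29, where 4441 of all genes were higher. That last setting gave 2 higher and 33 lower in knockout against parental cells, 1 lower in resistant against overexpressing cells, and turned Rplp2 in knockout against parental cells to 0.0094. In knockout against parental cells 1 gene was higher with the 4 libraries alone, DESeq2, GC and length trends removed, 50 reads, no filter and upper-quartile scaling. With a fold threshold of 1 the counts of higher and lower genes were 0 and 0 in overexpressing against parental, 0 and 24 in knockout against resistant, 12 and 1 in resistant against parental, 0 lower in knockout against parental, 10 higher in resistant against overexpressing cells and 26 lower in the difference. Over all 14513 genes, called or not, the counts past 1 up and down were in this order 2120 and 991, 1964 and 2341, and 2413 and 1992. The last were 681 and 492, 643 and 1268, and 1643 and 979. Relative to the total, knockout against parental cells had 17 higher with GC and length trends, 18 with GC and mRNA length trends removed, 5 with the median ratio, and 3 to 16 on leaving out each library. The cause was not tested, other than that a fold threshold leaves fewer genes by construction. Shares of nuclear protein-coding reads were 5.92%, 6.32%, 9.54% and 5.35% in the parental, overexpressing, resistant and knockout groups, and with pseudogene reads 5.84%, 6.13%, 9.08% and 5.29%.

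Leaving out each library in turn gave 10 to 15 higher and 32 to 39 lower in overexpressing against parental, 3 higher and 69 to 73 lower in knockout against resistant, 63 to 65 higher and 6 to 7 lower in resistant against parental, and 0 to 1 higher and 40 to 62 lower in knockout against parental cells. It gave 74 to 76 higher in resistant against overexpressing cells and 77 lower in the difference. Over all tested genes the replicate numbers showed no pairing of the samples, with correlations of same-numbered deviations of -0.00137 to 0.0342. These correlations cannot settle it for the shortest ribosomal protein genes. Their median log2 difference between replicate 2 and replicate 1 was 0.26 in the parental and 0.18 in the resistant group. It was -0.06 in the overexpressing and -0.004 in the knockout group. With the replicate block the counts were the same except 75 higher in resistant against overexpressing cells and, relative to the total, 31 higher in overexpressing and 17 lower in knockout against parental cells. With 2 libraries a group, small changes rest on the pooled spread.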
